A study of Mus musculus with 10 samples.

Results

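The genes described here encode the proteasome, the protease that degrades ubiquitin-tagged proteins, in the striatum of Huntington's disease model mice given SPI-24. They were chosen by name, as gene symbols that begin with Psma, Psmb, Psmc, Psmd, Psme, Psmf or Psmg and a number. Symbols that end in ps or os were left out. This gave 51 of the 21230 genes measured. Of these, 49 encode subunits, activators, regulators or assembly chaperones, and 2 only share the name, Psmc3ip, which encodes a partner of the meiotic recombinases, and the pseudogene Psmb6-ps2. The rule reads names only.

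RNA was sequenced from small punches of striatum of 10 BACHD mice, FVB/N mice heterozygous for a full-length human mutant HTT transgene beside their own Htt genes. In 5 mice SPI-24, a small-molecule inhibitor of the Spt5-Pol II interface, was infused under the skin by osmotic pump for 8 weeks, and in the other 5 mice the pumps held only the vehicle, DMSO in PEG400. The mice were 3 months old at the start. Both groups carry the transgene and had the pump surgery, the pumps were replaced once, and no wild-type mice are in these data. The labels call each library a separate biological replicate. For this pump treatment the paper reports very little SPI-24 remaining in the brain and no detectable change of Htt protein. It also reports better results in motor tests. The part of drug exposure in the values below was not tested.

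The values are read counts per gene divided by a size factor for each library, called normalized counts below. The reads recovered from them numbered 7.38 to 29.6 M in SPI-24 libraries and 5.48 to 46.9 M in DMSO libraries, and SPI-24 library 2 and DMSO library 3 were the shallowest. Markers of medium spiny neurons, the main neurons of the striatum, varied widely within both groups. The summed level of 13 such markers ran between 6669 and 124519 normalized counts in SPI-24 libraries and between 6487 and 116549 in DMSO libraries, and SPI-24 library 5 and DMSO library 1 were the richest. Of these markers Adora2a was at 0 in 2 libraries and Drd1, Gpr6 and Tac1 in 1 library each. The summed level of 8 choroid plexus markers ran between 1529 and 29580 in SPI-24 libraries and between 549 and 188852 in DMSO libraries. The values come from bulk tissue, in which fewer cells of a type and less RNA per cell cannot be told apart.

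The 26S proteasome is a barrel, the 20S core particle, capped by the 19S regulatory particle. The cap binds the ubiquitin chain, removes it, unfolds the substrate with a ring of ATPases and feeds it into the core, where catalytic beta subunits of different specificity cut it into peptides. Under interferon the catalytic subunits can be replaced by immunoproteasome counterparts and the cap by the PA28 activator, and when proteasomes are impaired the transcription factor Nrf1, encoded by Nfe2l1, raises the subunit genes together. In Huntington's disease the proteasome has long been studied as a route for clearing fragments of mutant huntingtin.

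The proteasome genes were expressed over a wide range. Per kilobase of exon, Psmc5, an ATPase of the cap, was the highest, with 5292 ± 781 normalized counts per kb (SD over 10 libraries). Psmb6, the caspase-like catalytic subunit, followed with 2690.2 ± 422 normalized counts per kb, then Psmb4, a structural beta subunit, with 2143 ± 384. The 31 constitutive 26S subunits had a median of 744 normalized counts per kb and ran from 127 for Psmd11, a lid subunit of the cap, to the level of Psmc5. The assembly chaperones picked by the naming rule were lower, with medians of 183 for the 4 of the core and 175 for the 3 of the base of the cap. Pomp, a core chaperone outside the naming rule, is not in these medians. It averaged 3631 normalized counts in SPI-24 libraries and 4120 in DMSO libraries, not scaled by exon length. In the order of all 51 genes, 48 of the 50 neighbouring pairs lay closer together than the sum of their SDs. Neighbours in a sorted order are close by construction, and no test between genes was made, so the order is a description only.

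**Figure D1:**
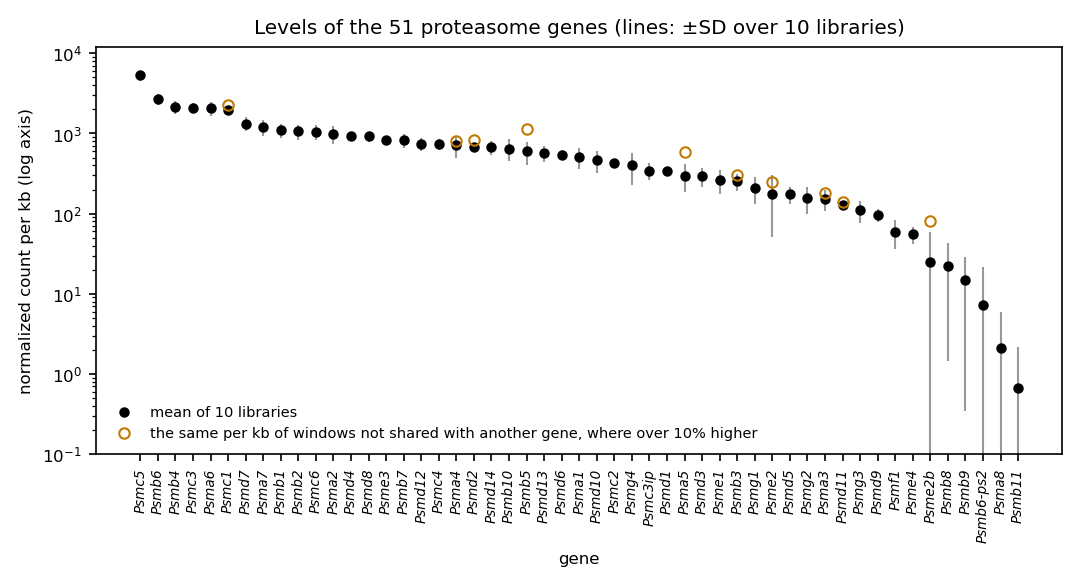
Mean normalized count per kb of exon of the 51 proteasome genes (log axis), in order of level, with lines for the SD over the 10 libraries of both groups; open circles give the level per kb of windows not shared with another gene, where that is over 10% higher. Psmc5 stands highest at 5292, most 26S subunits lie between about 127 and 2690.2, and the immunoproteasome genes Psmb8 and Psmb9 lie at 22.2 and 14.7.

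The levels of some members were measured on part of the transcript only. The authors discarded reads that mapped to several places, and a read of 50 bases from a stretch shared with another gene is lost. Of the 51 members, 9 had at least 10% of their 50-base windows in another annotated gene, most often a processed pseudogene, and 26 had none. The share was 49.1% for Psma5, a subunit of the outer ring, 47.4% for Psmb5, the chymotrypsin-like subunit, 28.3% for Psme2, the beta subunit of PA28, and 69.3% for Psme2b, its near copy. Counted over unshared windows, the level of Psmb5 came to 1142 normalized counts per kb in place of 601, and that of Psma5 to 587 in place of 299. Psmc1, with 14.1% of its windows shared, came to 2276 in place of 1955 and so took the third place, ahead of Psmb4. Between libraries the shared windows are the same, so the loss bears on levels between genes.

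The windows below hold the most differing bases, up to a cap of 5, among unspliced coding windows aligned to the copy. Windows with more differences than this cap were not considered. For both pairs shown, windows identical in gene and copy exist as well. Each is 50 bases in GENCODE M21 on GRCm38, coding in Psmb5 and the matching stretch in the pseudogene, from chr14:54616715-54616764 on the minus strand for Psmb5 and chr7:3181349-3181398 on the plus strand for its pseudogene Gm3375, with the bases that differ in capitals.
Psmb5: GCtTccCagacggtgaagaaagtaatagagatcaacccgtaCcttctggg
Gm3375: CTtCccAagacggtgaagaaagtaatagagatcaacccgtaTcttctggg
In the same way, a coding window of Psme2 at chr14:55588045-55588094 and that of Psme2b at chr11:48945572-48945621, both on the minus strand, differ at 2 bases.
Psme2: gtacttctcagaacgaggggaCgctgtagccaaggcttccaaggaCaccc
Psme2b: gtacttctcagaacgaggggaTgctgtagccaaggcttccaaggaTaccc
Given the shares of windows stated above, the values of Psmb5, Psma5, Psme2 and Psme2b are less certain than those of genes without copies.

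To ask whether SPI-24 treatment was accompanied by a change in these genes, both groups were set against each other in a limma fit, using log2 of the normalized count with 1 added. The fit took in every gene whose mean normalized count reached 10, which left 15871 genes, and p-values were adjusted over all of these after Benjamini and Hochberg. Of the 51 proteasome genes 48 passed this filter. Their adjusted p was 0.999 by limma for each, so none was called at 0.05, and the background over all genes tested was also 0%. At an unadjusted p of 0.05 none of the 48 passed, beside 354 genes, or 2.23%, of all genes tested. In none of the 48 did the 5 SPI-24 libraries lie wholly above or wholly below the 5 DMSO libraries, which was the case for 82 genes, or 0.517%, of all genes tested. With edgeR and with DESeq2 on the recovered reads the proteasome genes gave 0 calls and 0 at an unadjusted p of 0.05 as well.

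The fold changes, given as log2 of SPI-24 over DMSO, were small. They ran from -0.88 for Psmg1 to 1.02 for Psme2b with a median of -0.06, beside a median of 0.00137 over all genes tested. In SPI-24 libraries 18 of the 48 were on average higher and 30 lower, beside 7966 higher and 7905 lower over all genes tested. The whole 95% interval of the fold change was inside the 2-fold limits for 38 of the 48 proteasome genes, or 79.2%, against 37.9% of all genes tested. Interval width depends on the level of a gene, and among genes with a mean of at least 500 the shares were 97.3% for proteasome genes (36 of 37) and 83.4% for all genes (5230 of 6272). For those 36 genes a 2-fold change in either direction lies outside the interval, and the intervals of all 48 genes include 0.

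**Figure D2:**
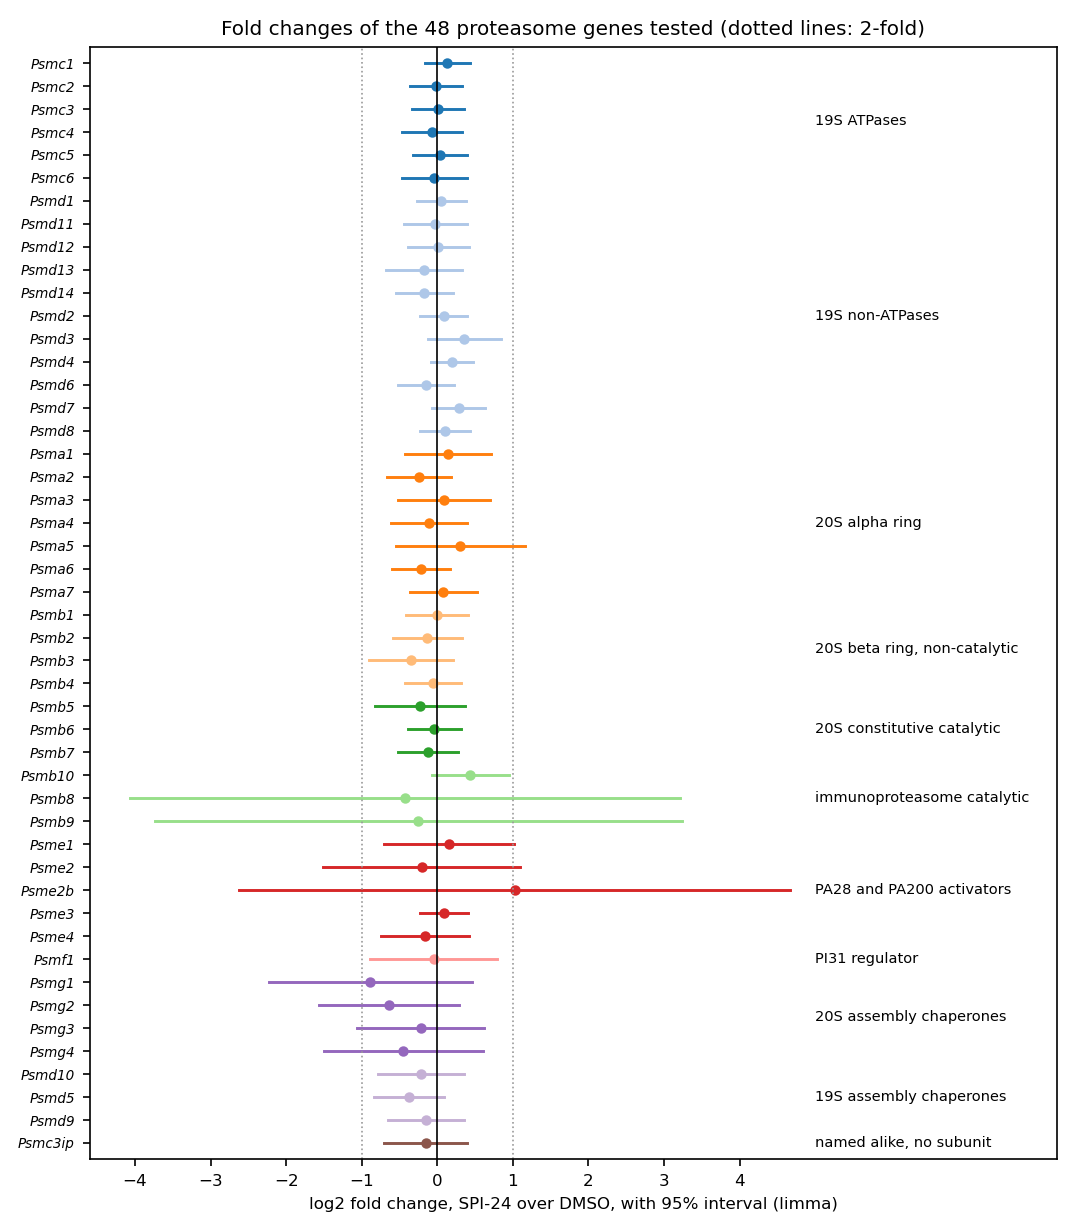
Log2 fold change, SPI-24 over DMSO, of the 48 proteasome genes tested, with 95% intervals from limma, grouped and coloured by role; the solid line is no change and the dotted lines are 2-fold. All intervals of 19S subunits cross 0 and stay within 2-fold, while those of Psmb8, Psmb9, Psme2 and Psme2b span more than 2-fold in both directions.

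The ATPases of the cap form the ring that unfolds substrates, and they were among the steadiest of all. Of the 6 genes 3 were on average higher and 3 lower in SPI-24 libraries, with a median log2 fold change of -0.01. Psmc5 had 7611, 7509, 7731, 6577 and 7585 normalized counts in SPI-24 libraries 1 to 5, against 8306, 9369.8, 7399.8, 5504 and 6181 in DMSO libraries 1 to 5. The DMSO libraries held both the highest and the lowest value. Psmc1 averaged 3947 ± 288 normalized counts in SPI-24 libraries and 3611 ± 448 in DMSO libraries (SD, n = 5 each), and all 5 SPI-24 libraries lay above the DMSO median, although DMSO library 2 was the highest. Psmc6, whose product also sits in this ring, had the widest spread, a 1.93-fold range over the 10 libraries. The intervals of all 6 genes were inside the 2-fold limits.

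The non-ATPase subunits of the cap bind ubiquitin, cut it off and hold the parts together. Of these 11 genes 7 were on average higher and 4 lower in SPI-24 libraries, with a median log2 fold change of 0.05. Psmd4, a ubiquitin receptor, had 2912, 2841, 2756, 2773 and 2560.0 normalized counts in SPI-24 libraries, against 2364, 2641, 2502, 2205 and 2406 in DMSO libraries. Only SPI-24 library 5 fell inside the DMSO range, below DMSO library 2, and the log2 fold change was 0.19 (95% interval -0.09 to 0.47). Psmd4 had the smallest SD over the 10 libraries of all proteasome genes, 0.13 on the log2 scale.

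Psmd7, the partner of the deubiquitinase, had 3088, 3198, 2934, 2810.3 and 4474 normalized counts in SPI-24 libraries, against 2786, 3090.4, 2201, 2805 and 2566 in DMSO libraries. SPI-24 library 5 stood far above the rest, SPI-24 library 2 lay just above all DMSO libraries and the other 3 lay inside the DMSO range, and the log2 fold change was 0.28 (95% interval -0.07 to 0.63). Psmd3, a structural subunit of the lid, had 1226, 1367, 1602, 1942 and 1925 normalized counts in SPI-24 libraries, against 974, 1648, 813, 1373 and 1607 in DMSO libraries. The groups overlapped, with a log2 fold change of 0.36 (95% interval -0.13 to 0.85). Psmd14, the deubiquitinase itself, averaged 1783 ± 312 in SPI-24 libraries and 2013 ± 414 in DMSO libraries (SD, n = 5 each). The scaffold subunits Psmd1 and Psmd2 averaged 2501 ± 287 and 2812 ± 418 in SPI-24 libraries, against 2415 ± 326 and 2640.2 ± 228 in DMSO libraries (SD, n = 5 each).

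The alpha subunits form the outer rings of the core and gate its entrance. Of these 7 genes 4 were on average higher and 3 lower in SPI-24 libraries, with a median log2 fold change of 0.08. Psma2 had 3893, 2936, 2851, 3037 and 3644 normalized counts in SPI-24 libraries, against 5804, 4577, 3466, 2724 and 3327 in DMSO libraries. DMSO libraries 1 and 2 lay above all SPI-24 libraries and DMSO library 4 below them all, and the log2 fold change was -0.24 (95% interval -0.67 to 0.18). Psma5, which shares windows with pseudogenes as given above, was the most variable of the 31 constitutive subunits, with a 5.09-fold range between DMSO library 3 at 140.1 and SPI-24 library 2 at 714 normalized counts. These are the shallowest libraries of the series. Psma4 ran between 1031 and 2900.1 normalized counts in SPI-24 libraries and between 1466 and 1896 in DMSO libraries, with SPI-24 libraries at both ends. The other alpha genes overlapped between the groups as well, with 6 of the 7 intervals inside the 2-fold limits.

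The beta rings hold the active sites, and the 4 non-catalytic beta subunits averaged lower in SPI-24 libraries by a median log2 fold change of -0.10. Psmb3 had 699, 340.3, 561, 439 and 542 normalized counts in SPI-24 libraries, against 646, 624, 878, 582 and 507 in DMSO libraries. The groups overlapped, and the log2 fold change was -0.34 (95% interval -0.90 to 0.21). Psmb2 averaged 1221 ± 243 normalized counts in SPI-24 libraries and 1349 ± 312 in DMSO libraries, and Psmb4 4065 ± 545 in SPI-24 libraries and 4297 ± 966 in DMSO libraries (SD, n = 5 each). For Psmb1 the log2 fold change was nearest to 0 of all, with means of 4967 ± 754 normalized counts in SPI-24 libraries and 5060.3 ± 1281 in DMSO libraries (SD, n = 5 each).

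All 3 constitutive catalytic subunits averaged slightly lower in SPI-24 libraries, and none passed the test. Psmb6 (chr11:70525367-70527858), with caspase-like activity, had 5019, 6095, 4662, 4591 and 4406 normalized counts in SPI-24 libraries, against 5834, 6362, 4973, 4183 and 4237 in DMSO libraries. The values interleave, and the log2 fold change was -0.04 (95% interval -0.39 to 0.31). Psmb7 (chr2:38588036-38644087), with trypsin-like activity, had 4064, 2592, 2632, 2610.1 and 1844 normalized counts in SPI-24 libraries, against 3042, 3216, 2984, 2517 and 2780.0 in DMSO libraries. SPI-24 libraries 1 and 5 held the highest and the lowest value of all 10, and the log2 fold change was -0.12 (95% interval -0.53 to 0.28). Exons of Psmb7 overlap those of Nek6 on the other strand over 11.8% of its length, and the sources used here do not say whether strand was used in counting. The same holds for Psmb9 with Tap1 over 5.79%, Psmc3 with Slc39a13 over 8.25%, Psmd13 with Sirt3 over 10.1%, Psmb8 with the antisense gene Gm20496 over 14.7% and Psmd9 with Gm26745 over 25.5%.

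Psmb5 (chr14:54614119-54618022), with the chymotrypsin-like activity that proteasome inhibitors block first, had 468, 470.4, 536, 557 and 391 normalized counts in SPI-24 libraries, against 416, 509.7, 984, 629 and 439 in DMSO libraries. DMSO library 3 was the highest and the other 9 lay close together, and the log2 fold change was -0.23 (95% interval -0.83 to 0.36) with that library and -0.03 without it. The intervals of all 3 genes lay within a 2-fold change.

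**Figure D3:**
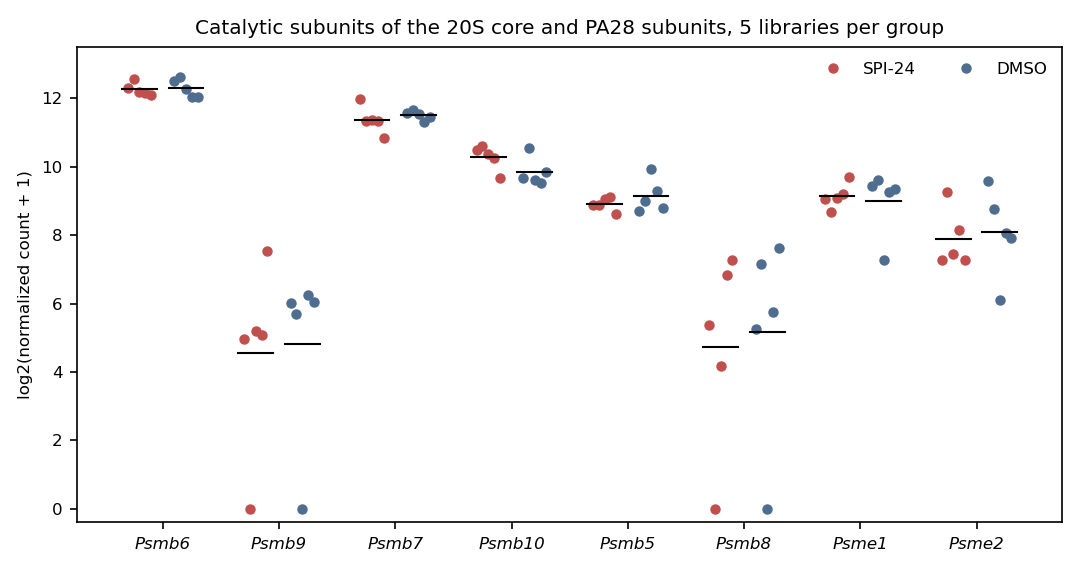
Log2(normalized count + 1) of the constitutive catalytic subunits Psmb6, Psmb7 and Psmb5, each followed by the immunoproteasome subunit that replaces it, and of the PA28 subunits Psme1 and Psme2; points are libraries, with SPI-24 (red) to the left of DMSO (blue), and bars are means of 5. The groups overlap for all 8 genes, and Psmb8 and Psmb9 are at 0 in SPI-24 library 2 and DMSO library 3.

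The immunoproteasome subunits Psmb8, Psmb9 and Psmb10 replace Psmb5, Psmb6 and Psmb7 in cells under interferon and in immune cells. Psmb10 (chr8:105935735-105938444) was the proteasome gene with the smallest p. It had 1448, 1555, 1314, 1214 and 807 normalized counts in SPI-24 libraries, against 819, 1489.7, 776, 728 and 923 in DMSO libraries. The values of 4 SPI-24 libraries lay above those of 4 DMSO libraries, but DMSO library 2 lay among them and SPI-24 library 5 lay among the DMSO libraries. The means were 1268 ± 288 normalized counts in SPI-24 libraries and 947 ± 312 in DMSO libraries (SD, n = 5 each), a log2 fold change of 0.44 (95% interval -0.07 to 0.95) with an unadjusted p of 0.0887 by limma. With single libraries left out the log2 fold change ran from 0.35 to 0.61. It was 0.35 without SPI-24 library 2 and 0.36 without DMSO library 4, each with an unadjusted p of 0.186 by limma. Without DMSO library 2 it was 0.61 with an unadjusted p of 0.0169, and without SPI-24 library 5 it was 0.59 with an unadjusted p of 0.0200, while the adjusted p by limma stayed at 0.996 and 0.959. With the 8 libraries above 10 M reads it was 0.30.

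Markers of vessel, immune and other cells are given here beside Psmb10. Of 10 endothelial markers 8 were on average higher and 2 lower in SPI-24 libraries, none at an adjusted p of 0.05, and their summed level ran between 2730 and 4143 normalized counts in SPI-24 libraries and between 1932 and 3449 in DMSO libraries. The median deviation of these markers from their own means lay between 0.06 and 0.58 on the log2 scale in SPI-24 libraries. In DMSO libraries it lay between -0.11 and -0.04. These ranges do not overlap, but this was not tested, and the share of gene sets apart in this way is not known. At an unadjusted p of 0.05 by limma 2 of the 10 passed, both higher, Ly6a with a log2 fold change of 0.81 and Slco1a4 with 1.02, beside 2.23% of all genes tested. The markers Tek, Cdh5 and Emcn were at 0 in 1 library each. Of 15 microglia markers 6 were on average higher and 9 lower, with sums between 12057 and 16798 normalized counts in SPI-24 libraries and between 12872 and 18674 in DMSO libraries, and Cd68 and Itgam were at 0 in 1 library each. Of these 2 passed at an unadjusted p of 0.05, both lower, Ctss with a log2 fold change of -0.59 and Tyrobp with -0.48 (adjusted p = 0.999 by limma for each). Of 4 T cell markers, Cd3g was at 0 in 9, Cd3e in 8, Trac in 5 and Cd4 in 2 of the 10 libraries, and Cd4 reached 1434 normalized counts in SPI-24 library 5 and 981 in DMSO library 1. Both are the libraries richest in medium spiny neuron markers, and Trac was at 0 in each. Cd4 is therefore not read as a measure of T cells here. Of other lists, 10 of 11 general neuron, 8 of 9 oligodendrocyte and 7 of 9 astrocyte markers averaged higher in SPI-24 libraries. Of 8 choroid plexus markers 7 averaged lower, and of 13 medium spiny neuron markers 6 averaged higher and 7 lower. For these lists and for microglia the ranges of the median deviation overlapped. The part of any of these cells in the values of Psmb10 was not tested.

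Psmb8 (chr17:34197721-34201454) had 40.5, 0, 17, 113 and 153 normalized counts in SPI-24 libraries, against 36.9, 141, 0, 52.9 and 196 in DMSO libraries. It was at 0 reads in SPI-24 library 2 and in DMSO library 3, which allows up to 8.30 and 10.3 normalized counts by the limit of 3 reads. This limit covers counting error only. The log2 fold change of -0.42 (95% interval -4.06 to 3.21) leaves a wide range.

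Psmb9 (chr17:34181987-34187764) had 30.1, 0, 35.8, 32.7 and 184 normalized counts in SPI-24 libraries, against 64.2, 51.2, 0, 74.5 and 64.7 in DMSO libraries. It was at 0 in the same 2 libraries, and SPI-24 library 5 held the highest value. Reads of its stretch shared with Tap1 may belong to either gene. The log2 fold change was -0.25 (95% interval -3.73 to 3.23), so a change of either sign was not detectable in these libraries.

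The share of immunoproteasome to constitutive transcripts differed strongly between the 3 pairs. Per kb, Psmb9 came to a median of 0.364% of Psmb6 in SPI-24 libraries (0 to 2.14%) and 0.563% in DMSO libraries (0 to 0.911%). Psmb8 came to a median of 2.30% of Psmb5 in SPI-24 libraries (0 to 10.4%) and 2.35% in DMSO libraries (0 to 11.9%), and with the lost windows of Psmb5 allowed for the medians were 1.21% and 1.24%. By contrast, Psmb10 came to a median of 93.3% of Psmb7 in SPI-24 libraries (71.5 to 120%) and 58.1% in DMSO libraries (52.2 to 92.9%). The ranges of the groups overlapped for all 5 ratios computed, Psme1 to Psme3 and Psme2 to Psme1 included. In every library Psmb10 was thus the only immunoproteasome subunit with transcripts of the order of its constitutive counterpart.

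**Figure D4:**
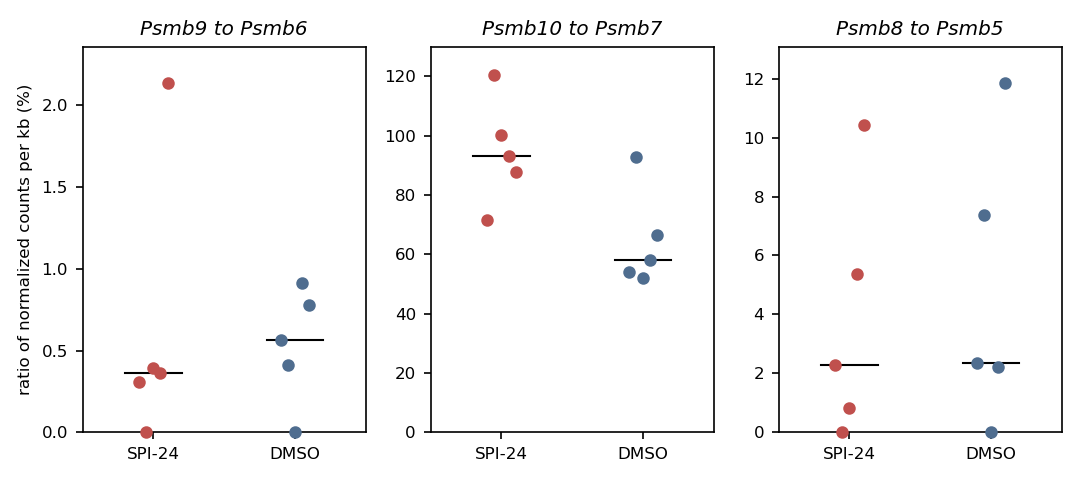
Ratio of normalized counts per kb, in percent, of each immunoproteasome subunit to the constitutive subunit it replaces; points are libraries, with SPI-24 left of DMSO, bars are medians of 5, and the 3 vertical axes differ in scale. Psmb10 to Psmb7 has medians of 93.3% in SPI-24 and 58.1% in DMSO libraries with overlapping ranges, whereas Psmb9 to Psmb6 stays below 2.2% in all 10 libraries.

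The PA28 activator caps the core without ubiquitin, and its alpha and beta subunits are encoded by Psme1 and Psme2. Psme1 (chr14:55578123-55581529) had 526, 404, 543, 594 and 838 normalized counts in SPI-24 libraries, against 696, 784, 154, 613 and 649 in DMSO libraries. DMSO library 3 was far below the rest, and the log2 fold change was 0.16 (95% interval -0.71 to 1.02) and -0.01 with edgeR on recovered reads. Without DMSO library 3 it was -0.27.

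Psme2 (chr14:55587441-55591113) had 154, 609, 174, 280.5 and 153 normalized counts in SPI-24 libraries, against 771, 432, 68.4, 264 and 239 in DMSO libraries. Its values spanned an 11.3-fold range with both extremes in DMSO libraries, and the log2 fold change was -0.21 (95% interval -1.52 to 1.10). With the 8 libraries above 10 M reads it was -1.04 with an unadjusted p of 0.0367 (limma, adjusted p = 0.940). Without the libraries richest in medium spiny neuron markers it was 0.32. Psme3, the nuclear PA28 gamma subunit, was by contrast steady, with 2540.1 ± 392 normalized counts in SPI-24 libraries and 2373 ± 160.4 in DMSO libraries (SD, n = 5 each). Psme2b, the near copy of Psme2, had 0, 0, 43.4, 19.9 and 91.1 normalized counts in SPI-24 libraries, against 1.19, 26.9, 0, 0.48 and 26.2 in DMSO libraries. With 3 of 10 libraries at 0 and 2 more at 1 read, its log2 fold change of 1.02 (95% interval -2.62 to 4.66) depends on the count of 1 that was added. Psme4, which encodes the PA200 activator, averaged 431 ± 67.4 and 493 ± 138 in SPI-24 and DMSO libraries (SD, n = 5 each), and Psmf1, which encodes the regulator PI31, averaged 389 ± 202 and 378 ± 101.0 in the same groups (SD, n = 5 each).

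The chaperones build the core and the base of the cap and leave the finished particle. All 7 picked by the naming rule averaged lower in SPI-24 libraries, with a median log2 fold change of -0.38, and none was called. Only Psmd5 reached an unadjusted p under 0.05 in any setting tried, with a log2 fold change of -0.50 and an unadjusted p of 0.0359 by limma without SPI-24 library 1. Psmg1 had 320.4, 324, 231, 271 and 24.8 normalized counts in SPI-24 libraries, against 353, 261, 410.1, 348 and 272 in DMSO libraries. The value in SPI-24 library 5 rests on 12 reads and was the lowest by far, and the log2 fold change was -0.88 (95% interval -2.23 to 0.46) with that library and -0.19 without it. Psmg2, the partner of Psmg1 in 1 complex, had 324, 108, 365, 187 and 139 normalized counts in SPI-24 libraries, against 364, 249, 389.6, 241 and 355 in DMSO libraries. In this gene 3 SPI-24 libraries lay below all DMSO libraries, and the log2 fold change was -0.64 (95% interval -1.56 to 0.29).

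Psmg3 and Psmg4, which form the other complex of core chaperones, overlapped between the groups. Psmg3 ran between 138 and 429 normalized counts in SPI-24 libraries and between 275 and 465 in DMSO libraries. Psmg4 ran between 98.1 and 311 in SPI-24 libraries and between 117 and 372 in DMSO libraries. None of the 4 core chaperones had an interval inside the 2-fold limits.

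Psmd5, a chaperone of the base, had 1543, 686, 1115, 1097 and 1122 normalized counts in SPI-24 libraries, against 1856, 1201, 1439, 1237 and 1346 in DMSO libraries. In this gene 4 SPI-24 libraries lay below all DMSO libraries and SPI-24 library 1 lay above 4 of them, with a log2 fold change of -0.38 (95% interval -0.84 to 0.09). Psmd10, also called gankyrin, averaged 627 ± 119 normalized counts in SPI-24 libraries and 751 ± 277 in DMSO libraries, and Psmd9 669 ± 148 in SPI-24 libraries and 731 ± 128 in DMSO libraries (SD, n = 5 each). All 3 base chaperones had intervals inside the 2-fold limits. Across the 4 chaperones of the core the median deviation was 0.39, -0.62, 0.44, -0.04 and -0.71 on the log2 scale in SPI-24 libraries 1 to 5, against 0.55, 0.13, 0.70, -0.04 and 0.02 in DMSO libraries 1 to 5. SPI-24 libraries 2 and 5 were the lowest and DMSO library 3 the highest. These 3 libraries had 7.38, 10.1 and 5.48 M reads, and the part of depth in these values was not tested.

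Over the whole particle the libraries of each group differed among themselves. The 31 constitutive subunits had a median SD over the 10 libraries of 0.27 on the log2 scale (0.13 to 0.63), beside 0.38 for all genes with a mean of at least 500. The SDs are not matched for level, since the median of the mean counts was 2458 for the subunits and 1184 for those genes. Psma5, with a mean of 395, lay below that limit. The median deviation of the 31 subunits was 0.21, -0.02, -0.01, -0.08 and -0.05 in SPI-24 libraries 1 to 5, against 0.13, 0.19, -0.02, -0.09 and -0.10 in DMSO libraries 1 to 5. The highest value of a subunit lay most often in SPI-24 library 1 (8 genes) and in DMSO library 1 (8) and DMSO library 2 (5). The lowest value lay most often in SPI-24 library 5 (8) and in DMSO library 4 (8) and DMSO library 3 (6). High and low libraries were thus found in both groups.

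**Figure D5:**
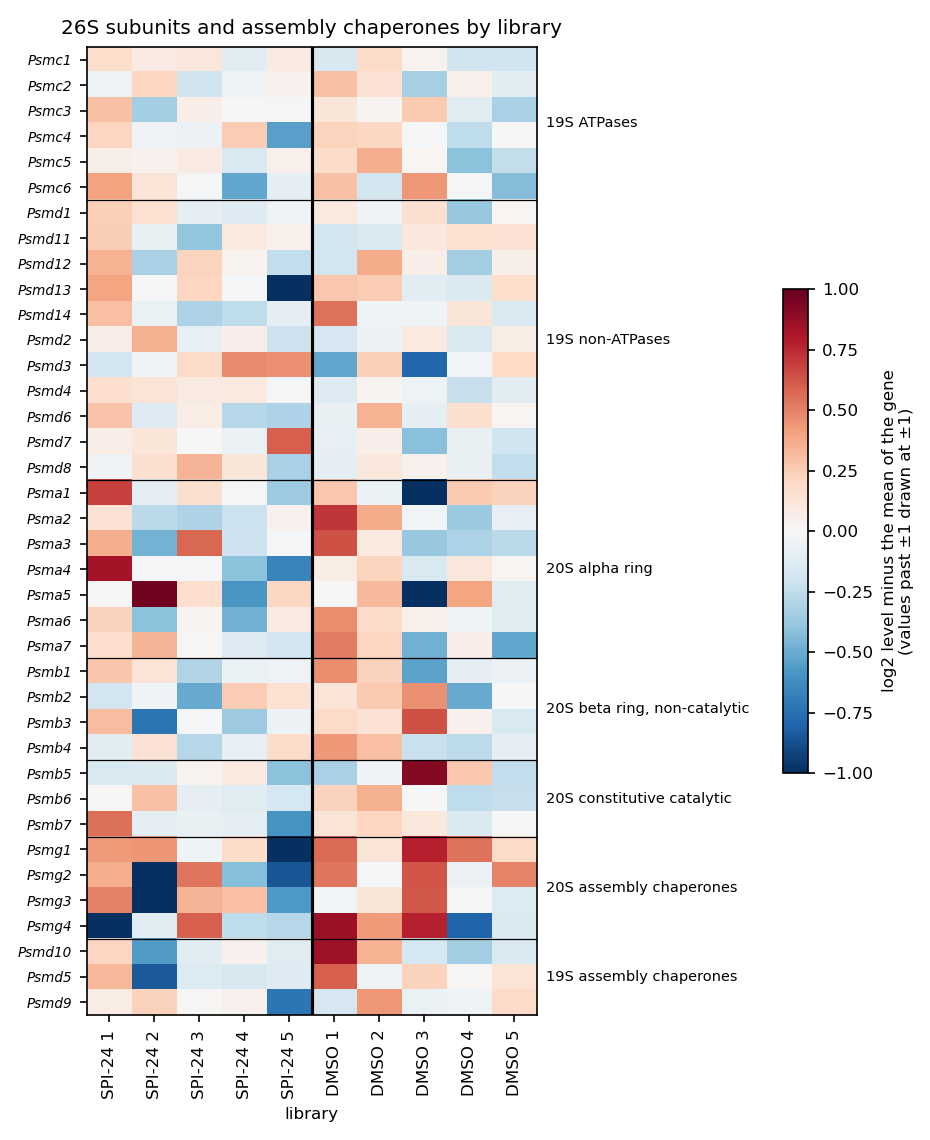
Log2 level minus the mean of each gene over the 10 libraries, for the 31 constitutive 26S subunits and the 7 assembly chaperones (rows, by role), with SPI-24 libraries left of the black line and DMSO libraries right of it; red is above and blue below the mean of the gene. SPI-24 library 1 is red for most subunits and Psmg1 in SPI-24 library 5 is deep blue, and no column pattern separates the 5 SPI-24 libraries as a group.

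Some proteasome genes belong to other tissues and were at or near the floor here. Psma8, the alpha subunit of the testis, Psmb11, the catalytic subunit of the thymus, and Psmb6-ps2 averaged 5.28, 3.22 and 5.05 normalized counts over the 10 libraries and were left out by the filter. Psma8 had reads in SPI-24 libraries 1, 3 and 4, with 17.7, 8.17 and 0.71 normalized counts, and in DMSO library 2, with 26.3. Psmb11 had reads in 1 library of each group, SPI-24 library 4 and DMSO library 5. Psmc3ip, which shares only the name, averaged 583 ± 72 normalized counts in SPI-24 libraries and 669.6 ± 190.0 in DMSO libraries (SD, n = 5 each).

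Genes that act with the proteasome were read from lists made for this purpose. Of 11 other proteins bound to the proteasome 7 were on average higher and 4 lower in SPI-24 libraries, with a median log2 fold change of 0.10. Uchl5, a deubiquitinase of the cap, had the smallest p of these, with 1961 ± 609 normalized counts in SPI-24 libraries and 1466 ± 239.6 in DMSO libraries (SD, n = 5 each). Of 11 genes of the Nrf1 pathway 7 were on average higher and 4 lower, with a median of 0.11. Nfe2l1 itself, named here outside the naming rule after its values were seen, averaged 7839 ± 795 in SPI-24 libraries and 7633 ± 734 in DMSO libraries (SD, n = 5 each).

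Of 17 genes of ubiquitin, its activation and shuttle factors, 13 were on average higher and 4 lower in SPI-24 libraries, with a median log2 fold change of 0.17, and 1 of the 17 had an unadjusted p under 0.05, beside 2.23% of all genes tested. This was Ubb, a polyubiquitin gene, with 5637 ± 556 normalized counts in SPI-24 libraries and 4537 ± 548 in DMSO libraries (SD, n = 5 each), a log2 fold change of 0.32 with a limma p of 0.0456 (adjusted p = 0.999). Of 13 genes of MHC class I antigen processing, the pathway that uses proteasome products, 6 were on average higher and 7 lower with a median of -0.04. In this list Nlrc5, a transactivator of MHC class I genes, had a limma p of 0.0151 (adjusted p = 0.999), with 0, 0, 0, 2.13 and 0 normalized counts in SPI-24 libraries, against 70.2, 25.6, 0, 35.1 and 22.5 in DMSO libraries. With means of 0.426 in SPI-24 and 30.7 in DMSO libraries, Nlrc5 passed the filter only through the DMSO libraries. Its p rests on values at or near 0 with 1 added and is given as a description only. Of 17 interferon response genes tested 9 were on average higher and 8 lower with a median of 0.04. No gene of these 5 lists passed at an adjusted p of 0.05.

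The promoters of the proteasome genes were searched for 3 short motifs in RefSeq windows of 250 bases before to 50 bases after the start on GRCm38.p6, on both strands. Windows were found for 41 of the 49 genes that encode subunits, activators, regulators or chaperones, 44 promoters in all. The antioxidant response element core TGACNNNGC, to which Nrf1 binds with its small Maf partners, was in 6 of these, or 13.6%, and in 12.4% of all 32851 promoters. The CCAAT box was in 14, or 31.8%, and in 37.4% of all. The core of the interferon-stimulated element, GAAANNGAA, was in 7, or 15.9%, and in 8.56% of all. These were promoters of Psmb3, Psmb4, Psmc2, Psmd4, Psmd9, Psme1 and Psmg4. The genes Psmb8, Psmb9, Psmb10 and Psme2 were not among them, though some genes had no window. A match is a description and not a binding site.

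Of the 3 constitutive catalytic subunits Psmb5 and Psmb6 held the antioxidant response element core. Their windows are shown since these subunits carry the activity of the core, with the motif in capitals, from chr14:54618023-54618068 on the minus strand for Psmb5 and chr11:70525322-70525356 on the plus strand for Psmb6.
Psmb5: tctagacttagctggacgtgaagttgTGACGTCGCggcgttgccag
Psmb6: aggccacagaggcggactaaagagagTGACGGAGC
Both genes kept their levels within the spread between libraries, as given above.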

How the data were processed

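RNA was measured in striatum punches of 10 BACHD mice, 5 given SPI-24 and 5 given DMSO, and groups were taken from the sample labels. According to the study's methods, the authors sequenced stranded libraries of polyadenylated RNA as single reads of 50 bases, trimmed them with cutadapt, aligned them to GRCm38 with STAR and Ensembl annotation, discarded multi-mapped reads and reads under 30 bases, counted with htseq-count and normalized with DESeq2. These tools also stand in the submitters' processing notes, without versions. The deposited values are a signal per gene, for which the authors scaled the reads of a library by its DESeq2 size factor. The same table holds the authors' fold changes and p-values of their comparison, which were not used.

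Whole reads could be recovered from the deposited values, and 99.98% of the 154521 values above 0 came out whole within 0.1 read. Recovered depth ran from 5.48 to 46.9 M reads per library. Limits for genes with 0 reads use 3 reads per library.

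Both groups entered a limma 3.58.1 fit with trend in R 4.3.3, on log2(normalized count + 1) and genes with a mean of at least 10, with Benjamini-Hochberg adjustment over all 15871 genes and no covariates. Fold changes on this scale understate changes of low genes. The fit was tested on simulated counts. Alternatives were a pseudocount of 0.5, no filter, at least 10 in every library, no trend, TMM scaling, edgeR 4.0.16 and DESeq2 1.42.0 on recovered reads (the count tests gave 0 and 3 calls over all genes), a covariate for medium spiny neuron markers, only libraries above 10 M reads, a replicate block and each library left out. Leaving out both libraries richest in medium spiny neuron markers was added after seeing the data. Levels per kb use the union of exons in GENCODE M21, which held 99.9% of the gene identifiers. The members and the lists were chosen with earlier results of these data known. By rule, fold changes with intervals are given for Psmb5 to Psmb10, Psme1, Psme2 and the 8 other members of smallest p, and for at most 4 genes per list, those of smallest p.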

Additional observations from a re-analysis of the deposited data

Results flagged for a closer look

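In 9 of 96 groups of 5 libraries, or 9.38%, the highest or the lowest library stood apart by Dixon's criterion on unlogged normalized counts. In SPI-24 libraries these were Psmc5 in library 4, with 6577 normalized counts and 7509 to 7731 in the others, Psmd7 in library 5, with 4474 and 2810.3 to 3198 in the others, and Psmb9 in library 5, with 184 and 0 to 35.8 in the others. SPI-24 library 2 stood apart for Psme4, with 551 and 393 to 416 in the others, and for Psme2, with 609 and 153 to 280.5 in the others. In DMSO libraries, library 3 stood apart for Psme1, with 154 and 613 to 784 in the others, for Psmg3, with 465 and 275 to 328 in the others, and for Psmf1, with 202 and 392 to 451 in the others, and library 2 for Psmb10, with 1489.7 and 728 to 923 in the others. The libraries of lowest depth, SPI-24 library 2 and DMSO library 3, hold 5 of these 9 values. By chance the criterion flags a group in every 20. The share of groups flagged over all genes tested was not computed. Whether 9.38% is unusual for these libraries is therefore not known, and the part of depth in the flags was not tested.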

How the results depend on the processing

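The count of proteasome genes called was 0 in all settings, and at most 1 had an unadjusted p under 0.05 in any of them. Their smallest adjusted p over all limma, edgeR and DESeq2 settings was 0.921. Over all genes 0 were called except with DESeq2, which called 3, none of them a proteasome gene. The median log2 fold change of the proteasome genes ran from -0.10 to 0.02 with single libraries left out and from -0.10 to 0.04 over the other alternatives. Of 16 members named with a test, 11 kept their sign in the 11 other alternatives and 10 kept it with each single library left out. The sign turned for Psmb9 with edgeR (0.11) and DESeq2 (0.14), for Psme1 with edgeR (-0.012), DESeq2 (-7.7e-06) and libraries above 10 M reads (-0.15), and without the libraries richest in medium spiny neuron markers for Psmb6 (0.056), Psmb7 (0.027) and Psme2 (0.32). The cause was not tested. With single libraries left out the log2 fold change ran from -0.34 to -0.033 for Psmb5, from 0.35 to 0.61 for Psmb10, from -0.11 to 0.047 for Psmb6, from -0.28 to 0.0096 for Psmb7, from -1.71 to 0.76 for Psmb8, from -1.45 to 0.89 for Psmb9, from -0.27 to 0.31 for Psme1 and from -0.70 to 0.17 for Psme2. None of these passed in the full data. TMM scaling shifted the median of all genes by 0.02.

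The labels give both groups the same replicate numbers, but same-numbered libraries did not deviate together (correlations of -0.05, -0.05, -0.01, -0.04 and -0.13 over genes). With the replicate block 0 genes and 0 proteasome genes were called and the median of the proteasome genes was -0.06. Psmb8 and Psmb9 had 0 reads in the 2 shallowest libraries, SPI-24 library 2 and DMSO library 3. The limits of 3 reads there were 8.30 and 10.3 normalized counts. Over the 10 libraries the means were higher, 75.0 for Psmb8 and 53.7 for Psmb9. The part of depth in these zeros was not tested. Psme2b was at 0 in both shallow libraries and also in SPI-24 library 1, which had 29.6 M reads.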
